A study of Mus musculus with 6 samples.

Results

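The CDK inhibitors and the ARF-p53 axis were followed across 6 arrays of mouse pre-B leukaemia cells after activation of Cre at a floxed Bcor allele. The 10 genes were named in a list by family and pathway: the INK4 inhibitors Cdkn2a, Cdkn2b, Cdkn2c and Cdkn2d, the CIP/KIP inhibitors Cdkn1a, Cdkn1b and Cdkn1c, and Trp53, Mdm2 and Mdm4. Of the 10, 9 were measured among 21446 tested rows of genes, and Trp53 was not analysed here. Where several probe sets carried only a gene's own symbol, the brightest by mean was used. The exception was Cdkn1a, read from a probe set that also carries the symbol 4930567H12Rik.

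The Cre-ERT2 cells were transduced with PMIP-CRE-ERT2, a vector for Cre recombinase fused to a tamoxifen-responsive receptor domain, and the ERT2 cells with PMIP-ERT2, the same kind of vector without Cre. All cells were C57Bl/6 pre-B cells transformed by the BCR-ABL1 kinase, a model of Ph+ acute lymphoblastic leukaemia, with the genotype Bcor fl/Y, a floxed Bcor on the single X chromosome of a male. Both groups were resistant to puromycin and received 4OH-Tamoxifen at 0.5 micromolar for 2 days, and there were 3 arrays of each. The labels do not say whether the arrays came from separate cultures or clones, so p-values reflect the spread among these arrays alone, and that spread could be purely technical. Cre-ERT2 arrays differ from ERT2 arrays both in active Cre and in the Bcor deletion, and effects of these on any gene cannot be told apart.

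CDK inhibitors slow entry into S phase. The INK4 proteins bind CDK4 and CDK6 and keep them from their D cyclins, while the CIP/KIP proteins bind complexes of cyclins with CDK2 and others. Cdkn2a also encodes ARF from another reading frame, and ARF holds back MDM2, the ligase that marks p53 for destruction. p53 in turn switches on Cdkn1a and Mdm2. Bcor encodes a corepressor of BCL6, and in germinal centre B cells BCL6 is known to repress Cdkn1a.

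Bcor checked the labels. Its log2 level was 9.08, 9.22 and 9.18 in the Cre-ERT2 arrays, against 10.07, 10.11 and 10.17 in the ERT2 arrays, which left it at 51.5% of the ERT2 level (95% interval 47.6% to 55.6%). The labels do not say which exons are floxed, so the probe set may lie partly outside the deleted stretch. The share of cells that carried the deletion was not measured here. The array medians ran between 8.61 and 8.68. The B-lineage markers of highest level, Igll1, a surrogate light chain, and Cd79b, a signalling chain of the pre-B cell receptor, averaged 14.25 and 13.62 in Cre-ERT2 cells, against 14.20 and 13.52 in ERT2 cells. Of 10 measured B-lineage markers Rag1, Rag2 and Il7r fell and 0 rose, while 2.92% of all rows fell and 4.19% rose. The mean over the list ran from 12.10 to 12.14 in Cre-ERT2 arrays and from 12.26 to 12.29 in ERT2 arrays, which did not overlap. Ebf1, a factor that specifies B cells, was at -0.14 with all Cre-ERT2 arrays below the ERT2 arrays (limma adjusted p = 0.0609, named after its values were seen). It passed with an intensity trend, with array weights and with the dimmest 30% of rows left out (adjusted p from 0.00449 to 0.0303). Cd79b, at 0.09 with all Cre-ERT2 arrays above the ERT2 arrays, was called higher with array weights (limma adjusted p = 0.0442). Lyz2 rose by 0.45 among 10 myeloid markers, and the mean over the list was 8.21 in each Cre-ERT2 array and from 8.16 to 8.19 in the ERT2 arrays. The list's log2 fold changes ran from -0.13 to 0.45 with a median of 0.02, and 5 of the 10 were among the dimmest 30% of rows. All Cre-ERT2 arrays lay above the ERT2 arrays for 3 of the 10 and below them for 2. Ncr1 fell among 9 markers of T and NK cells, a call lost without Cre-ERT2 replicate 1 (adjusted p = 0.0528). Of these 9 markers 5, with Ncr1, were among the dimmest 30% of rows. That list's mean ran from 7.89 to 7.90 in Cre-ERT2 arrays and from 7.91 to 7.997 in ERT2 arrays. Of 4 erythroid and 8 stromal markers 0 passed limma's test, and 0 and 2 had an unadjusted p under 0.05. The erythroid mean ran from 8.24 to 8.35 in Cre-ERT2 arrays and from 8.25 to 8.31 in ERT2 arrays, and the stromal mean from 8.48 to 8.53 in Cre-ERT2 arrays and from 8.52 to 8.60 in ERT2 arrays. In such bulk RNA, fewer cells of a type and less RNA per cell cannot be told apart, and the part of other cells in the results below was not tested.

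Among the 9 genes Cdkn1a stood apart. It rose 1.71-fold with Cre-ERT2 and was the only one of the 9 past the threshold, an adjusted p under 0.05 in limma's moderated test over all 21446 rows. The other 8 differed by at most 0.17 on the log2 scale. Over all rows 7.11% were called, 4.19% higher and 2.92% lower, so 1 call among 9 genes is near the background in number. The median log2 fold change of the 9 was -0.07, beside -0.04 over all rows.

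**Figure D1:**
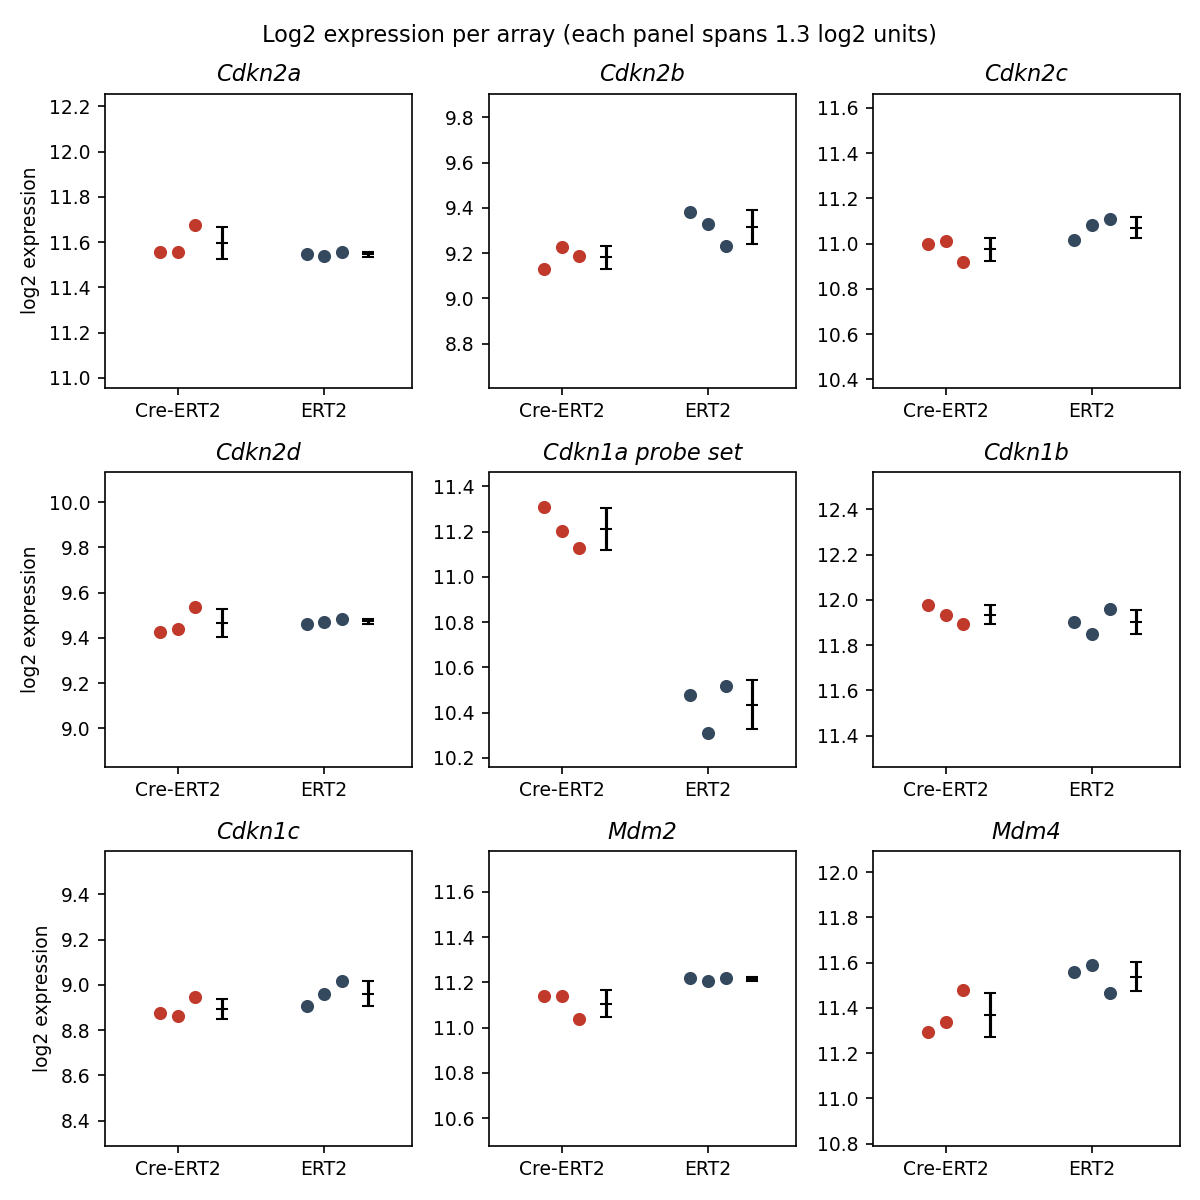
Log2 expression in each array, Cre-ERT2 on the left and ERT2 on the right, with points for single arrays and a bar for the mean and SD of 3 arrays. The Cdkn1a probe set lies between 11.13 and 11.31 in Cre-ERT2 arrays and between 10.31 and 10.52 in ERT2 arrays, while the groups of the other 8 genes lie close together or overlap.

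Cdkn1a encodes p21, a CIP/KIP inhibitor of cyclin E and cyclin A complexes with CDK2 and a classical target of p53. Its probe set had log2 levels of 11.31, 11.20 and 11.13 in the Cre-ERT2 arrays, against 10.48, 10.31 and 10.52 in the ERT2 arrays. Every Cre-ERT2 array lay above every ERT2 array, and the gap between the closest arrays was 0.61. The means were 11.21 ± 0.0927 with Cre-ERT2 and 10.44 ± 0.109 with ERT2 (SD, n = 3 each). The log2 fold change was 0.78 (SE 0.0666, 95% interval 0.62 to 0.93, limma adjusted p = 0.000322), which is a fold of 1.54 to 1.90 at the ends of the interval. An exact permutation test of this value alone gave p = 0.1, two-sided, the smallest that 3 arrays against 3 can give. By size the rise ranked 51 among the 898 rows called higher.

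Because the probe set carries 2 symbols, its signal may hold both transcripts. Of the 9 accessions listed with it, 2 matched RefSeq transcripts of Cdkn1a and 0 matched 4930567H12Rik, a long noncoding RNA that the RefSeq table places on chromosome 8, whereas Cdkn1a is on chromosome 17. The genes beside Cdkn1a did not pass the test. The 3 nearest measured genes on each side had log2 fold changes from -0.08 to 0.05, with limma adjusted p from 0.410 to 0.893.

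RefSeq gives Cdkn1a a pair of start sites in GRCm38.p6, both on the plus strand, and the windows from 250 bases before to 50 bases after each start are shown because Cdkn1a carries the change. Capitals in the upstream window mark matches to the p53 half-site, and capitals in the downstream window mark the GC box GGGCGG, read on both strands.
Cdkn1a upstream start, chr17:29090729-29091028: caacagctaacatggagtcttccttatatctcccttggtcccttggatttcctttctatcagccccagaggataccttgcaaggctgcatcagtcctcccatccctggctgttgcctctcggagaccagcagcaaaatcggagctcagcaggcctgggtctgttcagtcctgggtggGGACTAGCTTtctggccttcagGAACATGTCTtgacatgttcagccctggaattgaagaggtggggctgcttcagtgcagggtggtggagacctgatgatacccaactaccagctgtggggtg
Cdkn1a downstream start, chr17:29093519-29093818: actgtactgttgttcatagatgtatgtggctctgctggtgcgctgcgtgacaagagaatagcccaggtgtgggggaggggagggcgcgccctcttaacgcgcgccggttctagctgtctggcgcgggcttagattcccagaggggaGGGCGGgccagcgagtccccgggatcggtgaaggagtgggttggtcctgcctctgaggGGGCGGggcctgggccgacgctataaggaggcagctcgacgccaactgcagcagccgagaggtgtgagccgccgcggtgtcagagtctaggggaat

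The upstream window held 2 p53 half-sites, starting 73 and 51 bases before the start. The 10 bases right after the half-site at 51 differed from a second half-site at 1 position. The downstream window held 2 GC boxes, starting 104 and 46 bases before its start, and no p53 half-site. Neither window held an exact match to the BCL6 core TTCCTNGAA, the E2F site TTTNGCGC or the TATA box TATAAA, the last read on the gene's strand alone. Near matches to these motifs were not sought, so variant elements may be present. RefSeq promoters were matched for 8 of the 9 genes, 12 windows in all. Of these 12, a p53 half-site was in 3 (in Cdkn1a, Mdm2 and Cdkn2d), a GC box in 8, an E2F site in 1 (Cdkn2a) and a BCL6 core in 0. Among all 32851 promoter windows of that length, 8.36% held a p53 half-site, 35.7% a GC box, 1.38% an E2F site, 1.59% a BCL6 core and 8.32% a TATA box. A match in letters is a description and shows no binding.

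The remaining CIP/KIP inhibitors did not pass the test. Cdkn1b encodes p27, which restrains cyclin E and CDK2 in resting cells. It had log2 levels of 11.98, 11.93 and 11.89 with Cre-ERT2, against 11.90, 11.85 and 11.96 with ERT2. The groups overlapped, and the log2 fold change of 0.03 had a 95% interval from -0.07 to 0.13 (limma adjusted p = 0.715). A second Cdkn1b probe set gave 9.88, 9.86 and 9.74 with Cre-ERT2 and 9.84, 9.76 and 9.66 with ERT2, also overlapping (0.07, interval -0.07 to 0.20). Cdkn1c encodes p57, an imprinted inhibitor of developing tissues. Its levels ran from 8.86 to 8.94 in Cre-ERT2 arrays and from 8.91 to 9.02 in ERT2 arrays, with a log2 fold change of -0.07 (interval -0.17 to 0.03, adjusted p = 0.400). By these intervals the Cre-ERT2 level lay between 95.3% and 109.4% of the ERT2 level for Cdkn1b and between 89.1% and 102.4% for Cdkn1c, beside 154.2% to 190.5% for Cdkn1a. Cdkn1c averaged 8.89 with Cre-ERT2 and 8.96 with ERT2, near the array medians of 8.61 to 8.68. How much of that signal is background was not measured, so its interval may not bound the transcript.

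None of the INK4 inhibitors passed the test. Cdkn2a encodes both p16 and ARF, and its probe set lists RefSeq transcripts that share exons, so the products were not told apart. It had log2 levels of 11.56, 11.55 and 11.68 in the Cre-ERT2 arrays, against 11.55, 11.54 and 11.56 in the ERT2 arrays. A single Cre-ERT2 array, replicate 3, lay above all others. The log2 fold change was 0.05 (SE 0.0441, 95% interval -0.05 to 0.15, limma adjusted p = 0.535), so the level with Cre-ERT2 was between 96.5% and 111.0% of that with ERT2.

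Cdkn2b encodes p15, an inhibitor induced by TGF-beta, from the neighbouring locus. Its levels were 9.13, 9.23 and 9.19 with Cre-ERT2, against 9.38, 9.33 and 9.23 with ERT2. The groups were apart by only 0.004, and the log2 fold change was -0.13 (SE 0.0495, interval -0.25 to -0.02, adjusted p = 0.157). Cdkn2c encodes p18, which binds CDK6. Its levels were 10.997, 11.01 and 10.92 with Cre-ERT2 and 11.02, 11.08 and 11.11 with ERT2, apart by 0.006, with a log2 fold change of -0.09 (interval -0.20 to 0.01, adjusted p = 0.243). Cdkn2d encodes p19, the INK4 protein that is distinct from ARF. Its Cre-ERT2 arrays spanned 9.42 to 9.54 and its ERT2 arrays 9.46 to 9.48, with a log2 fold change of -0.01 (interval -0.10 to 0.09, adjusted p = 0.952) that turned to 0.0062 with cyclic loess.

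Mdm2 and Mdm4 hold p53 in check. Mdm2, the ligase and a p53 target itself, had log2 levels of 11.14, 11.14 and 11.04 in Cre-ERT2 arrays, against 11.22, 11.21 and 11.22 in ERT2 arrays. All 3 Cre-ERT2 arrays lay below the ERT2 arrays by at least 0.0649, and the log2 fold change of -0.11 (SE 0.0414, interval -0.20 to -0.01) had a limma adjusted p of 0.162. Mdm4 encodes a relative of MDM2 that binds the activation domain of p53. It was measured at 11.29, 11.34 and 11.48 with Cre-ERT2, against 11.56, 11.59 and 11.46 with ERT2. The highest Cre-ERT2 array, replicate 3, lay just above the lowest ERT2 array, and the other Cre-ERT2 arrays lay below every ERT2 array. Its log2 fold change was -0.17 (SE 0.0576, interval -0.30 to -0.04, adjusted p = 0.130). Without Cre-ERT2 replicate 3 the log2 fold change of Mdm4 was -0.22 and the call was made (limma adjusted p = 0.0434). It was also made with array weights (adjusted p = 0.0129), as was that of Cdkn2b (adjusted p = 0.0383).

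Among the 9 genes 3 had all Cre-ERT2 arrays below the ERT2 arrays (Cdkn2b, Cdkn2c and Mdm2) and 1 had them above (Cdkn1a). Over all rows 29.6% were apart, 19.8% downward and 9.78% upward. At an unadjusted p under 0.05 there were 4 of the 9, and 22.8% of all rows. All 9 lay above the dimmest 30% of rows by mean.

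**Figure D2:**
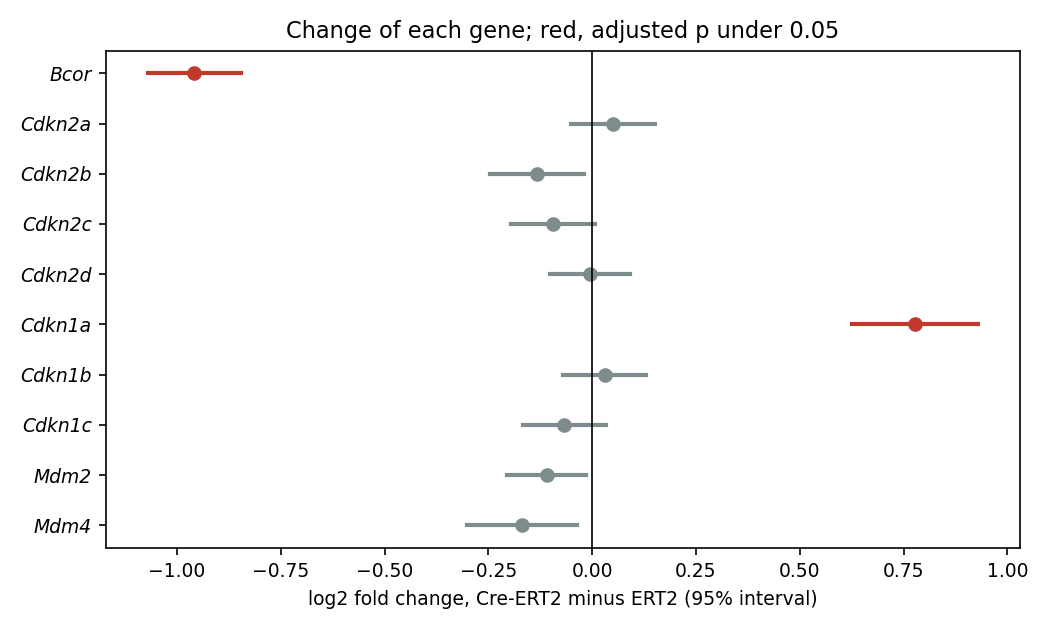
Log2 fold change of Bcor and of the 9 genes, Cre-ERT2 minus ERT2, with points for the estimate and lines for the 95% interval from limma. Bcor at -0.96 and Cdkn1a at 0.78 are past the threshold, and the intervals of the other 8 genes reach at most 0.30 from 0.

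Genes around the inhibitors were counted in lists that hold none of the 10. The lists were chosen with earlier results of these data known, so their shares of calls are descriptive alone. Of 27 measured p53 target genes 3 rose, 4 fell and 20 did not pass, with a median log2 fold change of -0.03. That is 25.9% called, beside 7.11% of all rows (4.19% higher and 2.92% lower). With 1 array left out, 3 rose and 1 to 2 fell. Btg2, an antiproliferative gene, had levels of 10.04, 9.98 and 10.001 with Cre-ERT2, against 9.35, 9.45 and 9.40 with ERT2, a log2 fold change of 0.60 (95% interval 0.51 to 0.70). Trp53inp1, which encodes a nuclear protein that promotes p53 activity, rose by 0.46, and Zmat3, an RNA-binding p53 target, by 0.33. These 3 rose with Cdkn1a. In the opposite direction, Plk3, a stress-induced kinase, was at 8.74, 8.82 and 8.72 with Cre-ERT2 and at 9.31, 9.29 and 9.39 with ERT2, and fell by 0.57 on the log2 scale. The other falls were Sesn2, Rrm2b and Fas, at -0.32, -0.22 and -0.19, named after their values were seen. Leaving out any single array ended the call of Fas (adjusted p up to 0.153), which was among the dimmest 30% of rows. The Rrm2b call survived only the loss of Cre-ERT2 replicate 2 (otherwise up to 0.0907), and the Sesn2 call was lost without Cre-ERT2 replicate 1 or 2 and without ERT2 replicate 2 or 3 (up to 0.0819). Many familiar targets did not pass, among them Ccng1 at 0.02, Phlda3 at 0.01, Bbc3 at -0.07 and Pmaip1 at 0.02, also named after their values were seen.

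Of 23 measured regulators and partners of p53, 1 rose and 0 fell, with a median of -0.01. That is 4.35% called, beside 7.11% of all rows (4.19% higher and 2.92% lower). The gene that rose was Hipk2, a kinase that phosphorylates p53 in the damage response. Its log2 levels were 11.84, 11.86 and 11.96 in Cre-ERT2 arrays, against 11.41, 11.33 and 11.35 in ERT2 arrays, with no overlap, and the log2 fold change was 0.52 (SE 0.0459, limma adjusted p = 0.000355). Of 23 genes that regulate the INK4-ARF locus 1 rose and 0 fell, with a median of 0.01. That is again 4.35% called, and 5 had all Cre-ERT2 arrays above the ERT2 arrays and 2 below. Over all rows 9.78% were apart upward and 19.8% downward. Pcgf2, a subunit of polycomb complexes that repress the locus, rose by 0.31, and that call ended without Cre-ERT2 replicate 1 or ERT2 replicate 1 or 2 (adjusted p up to 0.0662). Of 8 genes listed as neighbours of Cdkn2a and Cdkn2b, whose distances were not measured here, Focad fell by 0.16, and the other 7 ran from -0.07 to -0.03. The Focad call survived only the loss of Cre-ERT2 replicate 3 (otherwise an adjusted p up to 0.149). It is 12.5% of that list, beside 7.11% of all rows called. Of the 8 genes, 4 were among the dimmest 30% of rows.

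Among 13 genes for G1 cyclins, their kinases and activators of those kinases, 2 rose, 1 fell and 10 did not pass, with a median of -0.02. The 3 calls are 23.1%, beside 7.11% of all rows. The D cyclin Ccnd1 was measured at 11.50, 11.46 and 11.49 with Cre-ERT2, against 10.83, 10.83 and 10.995 with ERT2. The groups did not overlap, and Ccnd1 rose by 0.60 (SE 0.0518, limma adjusted p = 0.000344). Ccnd2, another D cyclin, rose by 0.18 and Ccne1, the cyclin E that activates CDK2, fell by 0.24. The kinases themselves lay near 0, with Cdk4 at -0.01, Cdk6 at -0.07 and Cdk2 at 0.02, named after their values were seen. The Ccnd2 call ended without replicate 1 or 2 of either group (adjusted p up to 0.0776), and the Ccne1 call without Cre-ERT2 replicate 2 or ERT2 replicate 1 (up to 0.0550).

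Of 18 genes of the RB family, the E2F factors and the DREAM repressor complex 3 fell and 0 rose, with a median of -0.08, and 9 had all Cre-ERT2 arrays below the ERT2 arrays. Over all rows 2.92% fell and 19.8% were apart downward. They were E2f7, an E2F that represses transcription, at -0.19, E2f4, which serves in RB-family repressor complexes, at -0.18, and Rbl1, which encodes the RB relative p107, at -0.15. Each of these calls depended on which arrays were used. Rbl1 lost its call whichever array was dropped (adjusted p up to 0.157), E2f4 kept it only without ERT2 replicate 2 (otherwise up to 0.121) and E2f7 only without Cre-ERT2 replicate 3 (otherwise up to 0.127). Of 12 genes that control CIP/KIP protein or RNA levels Foxo1, a forkhead factor known to activate Cdkn1b, fell by 0.26. That call survived only the loss of Cre-ERT2 replicate 3 (otherwise up to 0.102). It is 8.33% of that list, beside 7.11% of all rows called. Of 17 measured proliferation genes 0 were called by limma and 9 had an unadjusted p under 0.05, while 11 had all Cre-ERT2 arrays below the ERT2 arrays. Over all rows 22.8% had such a p and 19.8% were apart downward. Mcm7, a helicase subunit of replication, was at -0.16 (adjusted p = 0.0538) and Bub1, a spindle checkpoint kinase, at -0.12 (adjusted p = 0.0819). The list's log2 fold changes ran from -0.17 to -0.003, with a median of -0.09. Both genes passed with an intensity trend in the test, with array weights and with the dimmest 30% of rows left out (adjusted p from 0.00710 to 0.0426), and Mcm7 also without Cre-ERT2 replicate 3 (0.0323).

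**Figure D3:**
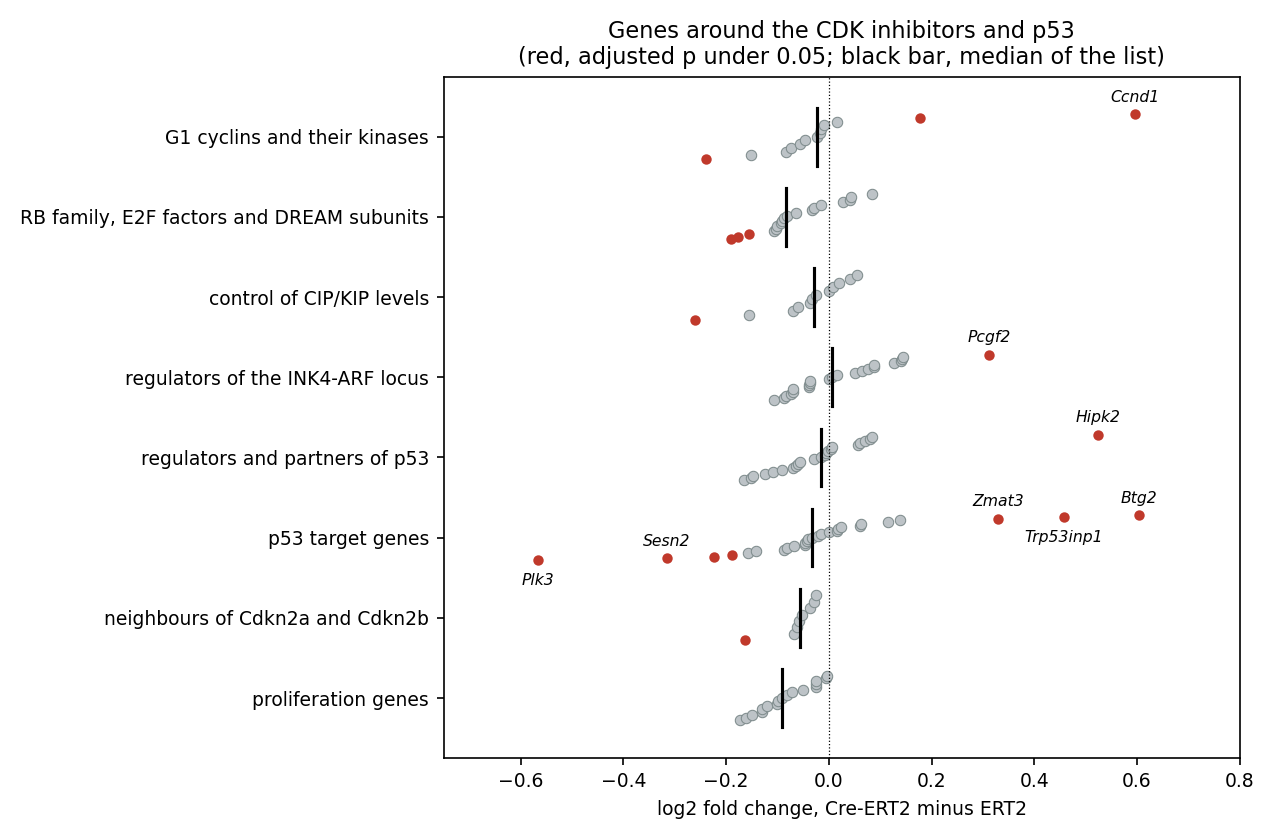
Log2 fold change, Cre-ERT2 minus ERT2, of each measured gene in 8 lists, in red where the adjusted p is under 0.05, with a black bar at the list's median. Btg2, Trp53inp1, Zmat3, Hipk2, Pcgf2 and Ccnd1 lie to the right and Plk3 and Sesn2 to the left, while the medians lie between -0.09 and 0.01.

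The direction of Cdkn1a was the same in all 15 other settings that held its probe set. Its log2 fold change ran from 0.72 to 0.82, and the limma adjusted p reached at most 0.00533. With single-symbol genes alone the probe set was not in the table.

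**Figure D4:**
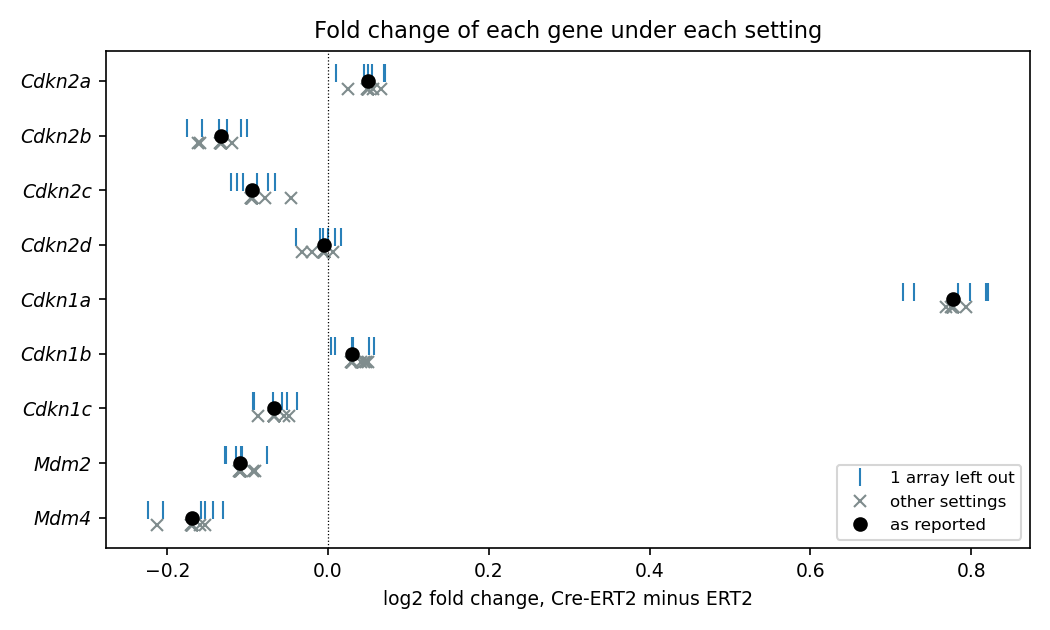
Log2 fold change of each of the 9 genes, Cre-ERT2 minus ERT2, as reported (black), with 1 array left out (blue bars) and under the other settings (grey crosses). Cdkn1a stays between 0.72 and 0.82, and Cdkn2d lies on either side of 0.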

How the data were processed

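The deposited values are log2 expression per probe set, and the submitters' processing notes name Partek 6.5 and RMA without role or order. The genome build is not given in the sources used here, and detection limits are unknown. Of 35556 probe sets, 21789 carried 1 gene symbol in the platform annotation, 1621 several, and 12146 were unlisted. The table tested held 19938 genes, each by the brightest probe set that carries its symbol alone, and 1508 several-symbol probe sets that name a gene without one.

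Differences were fitted as Cre-ERT2 minus ERT2 with limma 3.58.1 (lmFit, eBayes without a trend) in R 4.3.3, with Benjamini-Hochberg adjustment over 21446 rows and 95% intervals from moderated errors. Only 3 arrays per group limit the precision (median SE 0.0474). The pipeline was tested on simulated data with independent noise in each row and array. Those data held no effect shared within an array or culture, so the test says nothing about such effects here. Promoter windows came from RefSeq (GRCm38.p6). Figures used matplotlib 3.10.9.

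The genes and lists were chosen with earlier results of these data known. The naming rule took Bcor, the 10 genes and, per list, up to 4 called genes of largest change, or else the 2 of smallest p, and the 2 B-lineage markers of highest level. Markers of other cell types are given by counts and ranges. Alternatives were a replicate block, an intensity trend, array weights, median centring, quantile normalization, cyclic loess, the dimmest 30% left out, the mean of probe sets, all non-control probe sets, single-symbol genes alone, an adjusted p of 0.1 and each array left out.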

Additional observations from a re-analysis of the deposited data

How the results depend on the processing

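Of 143 log2 fold changes of the 9 genes under the alternatives, 137 kept their direction and their side of the threshold. Those that did not were Cdkn2b (-0.16) and Mdm4 (-0.21) with array weights, Mdm4 without Cre-ERT2 replicate 3 (-0.22, the end of a range up to -0.13 with 1 array left out), and Cdkn2d. Cdkn2d turned to 0.0062 with cyclic loess and ranged from -0.0404 to 0.0158 with 1 array left out, positive without Cre-ERT2 replicate 1 or 2 (0.0158 and 0.0084). The cause was not tested. Of the 9 genes, 3 were called with array weights, 0 with single-symbol genes alone, where Cdkn1a is not in the table, and 1 to 2 with an array left out. The calls over all rows were 1525, against 3660 with array weights, 2412 at an adjusted p of 0.1, and 797 to 1434 with 1 array left out. Of the calls, 58.9% were higher, against 69.0% after cyclic loess. The share turned with array weights (1451 higher, 2209 lower). Deviations of same-numbered arrays of the 2 groups from their group means had correlations of 0.05, -0.09 and -0.25. Those of differently numbered arrays ran from -0.29 to 0.31. With only 3 arrays per group these values cannot show whether the numbers pair the samples. With the replicate block 860 rows were called. Cdkn1a kept its call with that block. The block ended those of Ccnd2, Rbl1, E2f4, E2f7, Foxo1, Fas, Rrm2b and Focad. Of 558 values of other named genes, 71 lost their call, 11 gained one and 7 changed direction, all 7 in genes near 0 and not called. Phlda3 was at -0.0063 with array weights and from -0.0291 to 0.0507 with 1 array left out (-0.00025 without ERT2 replicate 2), Cdk4 at 0.00058 with cyclic loess and from -0.0169 to 0.0023 with 1 array left out, Ccng1 from -0.00105 to 0.0473 and Cdk2 from -0.0109 to 0.0580 with 1 array left out. Over all alternatives the p53 targets held 4 to 9 calls (7 as reported), the regulators of p53 1 to 4 (1), those of the INK4-ARF locus 0 to 4 (1), the G1 cyclins and kinases 1 to 4 (3), the RB and E2F list 0 to 3 (3), the control of CIP/KIP levels 0 to 2 (1), the neighbours of Cdkn2a and Cdkn2b 0 to 1 (1) and the proliferation genes 0 to 6 (0). Signal over background was not measured here, and no gene was called absent.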
